A study of Rattus norvegicus with 6 samples.

Results

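The interferon response genes are a set of 33 genes that cells switch on after interferon binds its receptor. They were followed in RNA from the pituitary glands of Sprague-Dawley rats. The members were given as a list of gene symbols, and all 33 symbols were found among the 33294 symbols in the count files. The nicotine group held 3 male rats aged 11 weeks whose dams had received nicotine tartrate (6 mg/kg per day) from an osmotic pump under the skin during pregnancy, and the control group held 3 male rats of the same age whose dams carried a pump with sterile saline. Each rat gave 1 library. The rats shared strain, sex and age, and whether the rats of a group came from separate litters is not given. Whole glands were used, so the RNA mixes hormone cells, vessels, blood and immune cells, and fewer cells of a type and less RNA per cell cannot be told apart. The extraction text in the sample labels describes testis tissue, while tissue and title say pituitary gland.

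Interferons of type I act through the receptor chains Ifnar1 and Ifnar2. The receptor activates kinases whose signal leads to a complex that contains Stat2 and Irf9 and binds the interferon-stimulated response element in front of target genes. Interferon gamma acts through its own receptor, and its signal is read at gamma-activated sites. The products of the target genes sense viral RNA, block its copying and translation, or amplify and stop the response itself. Healthy tissue keeps these genes at a low tonic level.

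Totals lay between 28318383 and 85977002 counts per library, and the median total of the nicotine libraries was 1.70 times that of the control libraries. Levels are given as CPM, which are counts scaled to a common library total after TMM normalization. Differences were tested with the quasi-likelihood method of edgeR and Benjamini-Hochberg adjustment over the 17292 genes that passed the filter on low counts. The genes that define the gland were abundant, with 11 hormone and lineage genes (Gh1, Prl and Pomc among them) summing to between 114103 and 176726 CPM. The read numbers that the study lists per library run the other way from the totals in the deposited files, with fewer reads listed for the nicotine than for the control libraries. Whether the list or the files carry the labels of the other group cannot be told apart here, and every direction below follows the labels of the samples. The deposited totals of the nicotine libraries also exceed the reads listed for them. If the groups were exchanged, every fold change below would change its sign and keep its size.

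No member passed the thresholds for differential expression (adjusted p under 0.1 and fold change over 1.5). The count was 0 of 32 members tested with edgeR, and over all genes tested the share called was 0%. DESeq2 also called 0 members, where it called 0.339% of all genes. At an unadjusted p under 0.05, 1 member was lower after nicotine and 0 were higher in edgeR, where the shares over all genes were 3.01% lower, 3.13% higher and 6.14% in either direction. The log2 fold change was below 0 for 23 of the 32 members and above 0 for 9, against 49% of all genes below 0. The median log2 fold change of the members was -0.13, beside 0.0070 for all genes tested. This median was -0.03 without control replicate 2, with 19 members below 0, and -0.26 without control replicate 3. Without TMM factors 19 members lay below 0 and 13 above, where the median over all genes was 0.057. For 10 of the 32 members the 95% interval of the log2 fold change lay within a 1.5-fold change in either direction. The other 22 intervals reached past a 1.5-fold change, and of these the interval of Rsad2 alone did not include 0.

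**Figure D1:**
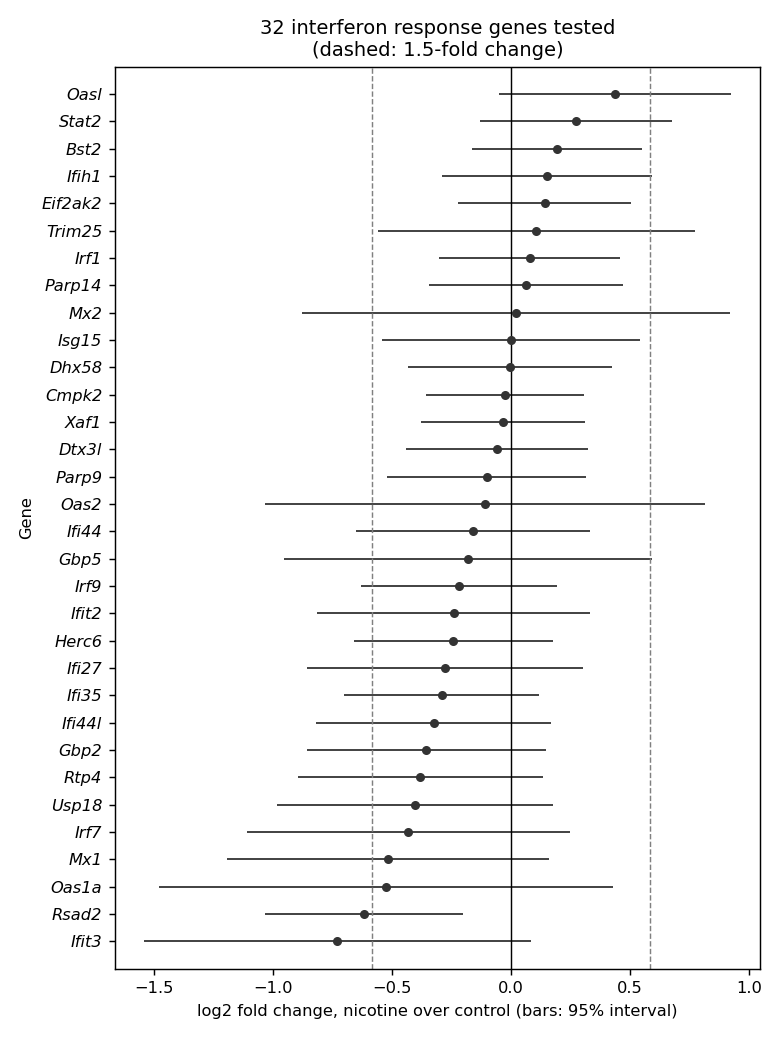
The log2 fold change of nicotine over control (x axis) is plotted for the 32 members tested (y axis), with 95% intervals as bars and a 1.5-fold change as dashed lines. Of the 32 points 23 lie below 0, and the interval of Rsad2, from -1.04 to -0.20, is the one that does not reach 0.

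Many of the members' start regions held letters that the factors of the pathway are known to read. In RefSeq (assembly GRCr8, while the counts were made on rn7), 25 of the 33 members had a promoter window of 300 bases, from 250 before to 50 after the start of the gene. The core of the interferon-stimulated response element was searched on both strands as TTTC followed, after any 2 bases, by TTTC again. It stood in 15 of the 25 member promoters (60%), in 29 of 87 promoters of other genes of the pathway (33.3%) and in 3.77% of all 27457 promoters. The longer form, with AG in front of the core, was found in 8 of the 25 member promoters (32%) and in 0.280% of all promoters. The gamma-activated site, searched as TTCNNNGAA, stood in 6 of 25 member promoters (24%), in 19 of the 87 (21.8%) and in 8.68% of all promoters. Both the core and the gamma-activated site were found in 4 members (Bst2, Ifi44l, Oas1a and Parp14). A match describes letters and does not show that a factor binds there.

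Printed here are the 150 bases before the start of the 5 members on which the values below turn, 5′ to 3′ along the gene, with matches to the core on either strand in capitals. In the order printed, the windows in GRCr8 are chr12:41330316-41330465 on the plus strand, chr1:241527176-241527325 on the plus strand, chr1:205800024-205800173 on the minus strand, chr6:48788121-48788270 on the minus strand and chr6:48802700-48802849 on the plus strand. Oas1a, Ifit3 and Irf7 are shown because their level differed widely between rats. Mx1 is not shown, although its highest library was 2.89 times its lowest, against 2.55 times in Irf7. The window of Mx1 held no core. Xaf1 and Dtx3l, whose windows held the core, ranged by factors of 1.17 and 1.25. A link between the core and the range was not tested. Rsad2 is shown because it was the single member with an unadjusted p under 0.05, and Cmpk2 because it starts 14730 bases from Rsad2 on the opposite strand and had the narrowest range of all members.
Oas1a: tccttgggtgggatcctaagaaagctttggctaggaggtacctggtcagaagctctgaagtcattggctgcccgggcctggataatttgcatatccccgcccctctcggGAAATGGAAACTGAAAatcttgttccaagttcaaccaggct
Ifit3: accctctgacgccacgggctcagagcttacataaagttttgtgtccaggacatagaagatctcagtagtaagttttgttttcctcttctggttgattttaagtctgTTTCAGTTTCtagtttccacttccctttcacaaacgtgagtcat
Irf7: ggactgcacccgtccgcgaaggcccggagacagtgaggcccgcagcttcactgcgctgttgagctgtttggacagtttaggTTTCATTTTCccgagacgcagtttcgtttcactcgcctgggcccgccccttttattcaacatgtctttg
Rsad2: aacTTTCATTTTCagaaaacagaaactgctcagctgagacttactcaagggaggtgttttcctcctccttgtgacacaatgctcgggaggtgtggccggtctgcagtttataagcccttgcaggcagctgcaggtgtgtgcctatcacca
Cmpk2: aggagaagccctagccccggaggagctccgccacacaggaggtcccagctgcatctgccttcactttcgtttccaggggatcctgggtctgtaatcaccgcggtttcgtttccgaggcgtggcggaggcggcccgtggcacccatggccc
In Oas1a 2 overlapping copies of the core make up the capitals, the first of them starting at base -41 before the gene. The single copies start at base -44 in Ifit3, -69 in Irf7 and -147 in Rsad2, and the window of Cmpk2 held no match to the core. The windows of Cmpk2 and Irf7 also held TTTC repeated at a shorter spacing, which was not searched.

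The ligands were hardly seen in these glands. Of 11 interferon genes listed, 9 were in the files and 0 passed the filter. Ifnb1, the beta interferon gene, had 0 counts in every library, which allows up to 0.0326 to 0.111 CPM per library (3 counts each, counting error only). Ifna1 reached counts of 17, 16 and 32 after nicotine and of 5, 10 and 6 in controls, which scaled to library size were 0.361, 0.174 and 0.529 CPM against 0.185, 0.189 and 0.158 CPM, with overlapping groups. It belongs to a family of near-identical genes, so its reads may be shared with other copies. Ifng, the interferon of T and NK cells, had 1, 0 and 0 counts after nicotine and 0, 0 and 1 in controls. The receptor was present in every library. Ifnar1 was at 29.8, 35.1 and 34.1 CPM after nicotine and at 34.6, 31.2 and 38.1 CPM in controls, with overlapping groups (log2 fold change -0.07 with an SE of 0.16, edgeR adjusted p = 0.942). This direction turned to 0.01 without control replicate 3. Ifnar2 was at 10.7, 12.2 and 12.6 CPM after nicotine and at 10.6, 10.2 and 9.67 CPM in controls. All nicotine values exceeded all control values, a separation seen in 6.12% of all genes, yet the log2 fold change of 0.23 was not past the threshold (SE 0.18, edgeR adjusted p = 0.841).

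Among the 4 transcription factors of the set 2 were above and 2 below the controls in mean, and none passed the test. Stat2, a subunit of the complex that binds the interferon-stimulated response element, was at 32.99, 39.7 and 25.8 CPM in nicotine replicates 1, 2 and 3 and at 25.5, 28.4 and 27.6 CPM in control replicates 1, 2 and 3. The nicotine libraries spanned both the highest values and one below the control mean, so the groups overlapped (log2 fold change 0.27 with an SE of 0.18, edgeR adjusted p = 0.832), and without nicotine replicate 2 the value was 0.10. Irf7, which amplifies type I interferon production, was at 16.7, 15.2 and 22.7 CPM after nicotine and at 15.03, 38.4 and 19.9 CPM in controls. A single library, control replicate 2, held the high value of that group. The log2 fold change of Irf7 was -0.43 (SE 0.31, edgeR adjusted p = 0.832), and without control replicate 2 it turned to 0.06. Irf9, the DNA-binding subunit of the same complex, averaged 18.5 ± 2.91 CPM in the nicotine group and 21.6 ± 2.83 CPM in the control group (SD, n = 3 each). Irf1, a factor induced mainly by interferon gamma, averaged 42.6 ± 5.12 CPM in the nicotine group and 40.4 ± 6.40 CPM in the control group (SD, n = 3 each). The means of Irf9 differed by slightly more than 1 SD and those of Irf1 by less, and for both the groups overlapped.

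The sensors of viral RNA had nearly the same mean in both groups. Ifih1, which binds long double-stranded RNA, averaged 11.7 ± 1.60 CPM in the nicotine group and 10.5 ± 1.57 CPM in the control group (SD, n = 3 each). Dhx58, a regulator of the RNA sensors, averaged 9.37 ± 1.30 CPM in the nicotine group and 9.38 ± 0.457 CPM in the control group (SD, n = 3 each). Eif2ak2, the kinase PKR that stops translation on double-stranded RNA, averaged 31.8 ± 4.34 CPM in the nicotine group and 28.8 ± 2.37 CPM in the control group (SD, n = 3 each). Adjusted p of the 3 genes lay between 0.881 and 0.998 in edgeR, and the interval of Ifih1, from -0.29 to 0.59, was the one that reached past a 1.5-fold change.

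Rsad2 is described here because it had the smallest unadjusted p of the 32 members tested in edgeR. It was the 1 member with such a p under 0.05, where 6.14% of all genes had one. It encodes viperin, an enzyme that makes a chain-terminating nucleotide against viral polymerases. Its level was 20.6, 22.5 and 28.5 CPM in nicotine replicates 1, 2 and 3 and 41.1, 29.8 and 39.1 CPM in control replicates 1, 2 and 3. Every nicotine library was thus below every control library, which over all genes tested held for 5.14%. The difference exceeded the larger SD of the groups, at 23.9 ± 4.12 CPM (SD, n = 3) against 36.7 ± 6.02 CPM (SD, n = 3). That also held for Oasl, Rtp4, Ifi35, Gbp2, Bst2 and Irf9. The log2 fold change was -0.62 (SE 0.19, edgeR unadjusted p = 0.00759 and adjusted p = 0.760), so Rsad2 did not pass after adjustment over all genes. The exact two-sided permutation test gave p = 0.1, the smallest that 3 rats against 3 allow. Without 1 library at a time the log2 fold change stayed between -0.76 and -0.52. Rsad2 had the unadjusted p under 0.05 in each of the 15 other fits as well. Those fits reuse the same libraries and are not independent of the main one. Over them the adjusted p of Rsad2 ran from 0.349 (DESeq2) to 0.9997 (edgeR without control replicate 1). Cmpk2, a mitochondrial nucleotide kinase that supplies the substrate of viperin, did not share this pattern. It was at 29.6, 33.5 and 30.1 CPM after nicotine and at 32.1, 29.8 and 33.1 CPM in controls, and its 6 libraries lay within a factor of 1.13.

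The Oas enzymes make short oligoadenylates that switch on RNase L. Oasl, an Oas-like relative of these enzymes, had the highest log2 fold change of the members under the labels as given. It was at 10.4, 9.25 and 7.95 CPM after nicotine and at 5.58, 8.27 and 6.37 CPM in controls. Control replicate 2 reached into the nicotine range, and the log2 fold change of 0.44 was not past the threshold (SE 0.22, edgeR adjusted p = 0.813). Oas1a differed more between rats of a group than between groups, at 6.56, 3.05 and 7.82 CPM after nicotine and 6.54, 13.8 and 4.23 CPM in controls. Its highest library was 4.53 times its lowest, the widest range of all members, and its log2 fold change was -0.53 (SE 0.43, edgeR adjusted p = 0.843). Without control replicate 2 that value turned to 0.11. Oas2 lay between 0.803 and 2.25 CPM over the 6 libraries. Oas1a has near copies in the rat genome, so its count depends on how shared reads were assigned.

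Of the Ifit family, Ifit1 binds viral RNA that lacks the cap marks of the host, and Ifit2 and Ifit3 are its relatives. Ifit3 was at 1.19, 1.11 and 2.18 CPM after nicotine and at 1.66, 3.42 and 2.11 CPM in controls. The groups overlapped through nicotine replicate 3 (log2 fold change -0.73 with an SE of 0.37, edgeR adjusted p = 0.813), and without control replicate 2 the value was -0.36. Ifit2 averaged 5.37 ± 1.28 CPM in the nicotine group and 6.30 ± 1.32 CPM in the control group (SD, n = 3 each). Ifit1 was the 1 member that did not pass the filter, since it had counts of 3, 1 and 2 after nicotine and of 2, 0 and 5 in controls, and no fold change is given for it.

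**Figure D2:**
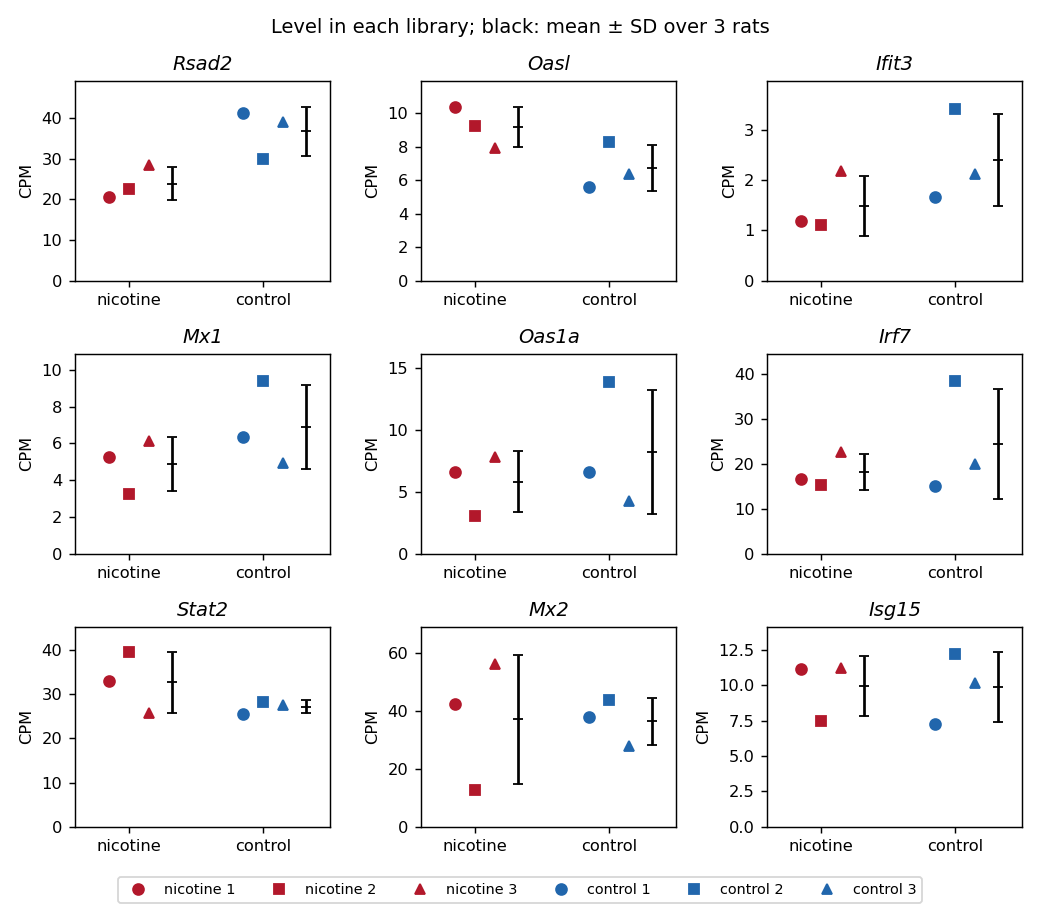
CPM (y axis, starting at 0) of 9 members in each library (points, by group on the x axis), with the mean ± SD over 3 rats in black. In Rsad2 the 3 nicotine points lie below the 3 control points, while in Oas1a, Mx1, Ifit3 and Irf7 control replicate 2 is the highest point.

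The Mx and Gbp proteins are large GTPases that attack viral capsids and the membranes of enclosed microbes. Mx1 was at 5.26, 3.26 and 6.11 CPM after nicotine and at 6.35, 9.40 and 4.91 CPM in controls. The groups overlapped on both sides (log2 fold change -0.52 with an SE of 0.31, edgeR adjusted p = 0.826), and the value was -0.21 without control replicate 2. Mx2 was at 42.4, 12.7 and 56.1 CPM after nicotine and at 37.7, 43.8 and 27.7 CPM in controls. Nicotine replicate 2 was the low library here, 4.42 times below nicotine replicate 3, and the 95% interval of the log2 fold change ran from -0.88 to 0.92. Mx1 and Mx2 are related in sequence, and reads shared between them could be split either way. Gbp2 was at 9.21, 14.2 and 13.9 CPM after nicotine and at 12.9, 19.4 and 15.4 CPM in controls (log2 fold change -0.36 with an SE of 0.23, edgeR adjusted p = 0.830). Without nicotine replicate 1 the value of Gbp2 was -0.18. Gbp5, a guanylate-binding protein linked to inflammasome assembly, averaged 1.90 ± 0.890 CPM in the nicotine group and 2.14 ± 0.352 CPM in the control group (SD, n = 3 each).

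Isg15 is a ubiquitin-like protein that is attached to other proteins during the response. It was at 11.2, 7.48 and 11.2 CPM after nicotine and at 7.27, 12.2 and 10.1 CPM in controls, with means of 9.96 and 9.88 CPM. The 95% interval of its log2 fold change ran from -0.54 to 0.54. Usp18, the protease that removes Isg15 and damps the receptor, was at 18.3, 10.5 and 15.3 CPM after nicotine and at 17.8, 25.9 and 14.2 CPM in controls. The lowest and the highest library were again nicotine replicate 2 and control replicate 2 (log2 fold change -0.40 with an SE of 0.26, edgeR adjusted p = 0.832), and without the latter the value was -0.12. Herc6, a ligase that attaches Isg15 in rodents, averaged 22.7 ± 3.57 CPM in the nicotine group and 26.8 ± 4.94 CPM in the control group (SD, n = 3 each). Trim25, a ubiquitin ligase of the sensor RIG-I, was at 22.3 CPM in nicotine replicate 2 and between 9.72 and 15.6 CPM in the other 5 libraries. Parp9, Parp14 and Dtx3l, which act in ADP-ribosylation and, as the pair of Parp9 and Dtx3l, in ubiquitination of histones and viral proteins, had adjusted p between 0.928 and 0.962 in edgeR. Their control means were 41.2, 53.9 and 15.9 CPM, and their nicotine means were 38.5, 56.3 and 15.3 CPM.

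The members with the most counts were Ifi27, Ifi44, Bst2 and Ifi35. Transcript lengths were not used here, so these CPM rank read numbers and not molecules. Ifi27, a small membrane protein gene that is a common marker of interferon exposure, was at 357, 206 and 402 CPM after nicotine and at 389, 484 and 295 CPM in controls (log2 fold change -0.28 with an SE of 0.26, edgeR adjusted p = 0.854). Without nicotine replicate 2 its value was -0.047. Ifi44 was at 153, 87.6 and 117 CPM after nicotine and at 157, 138 and 104 CPM in controls. Its log2 fold change of -0.16 (SE 0.22, edgeR adjusted p = 0.899) turned to 0.01 without nicotine replicate 2. Bst2, or tetherin, which holds budding virus on the cell surface, was at 79.5, 86.3 and 96.5 CPM after nicotine and at 65.4, 77.0 and 86.9 CPM in controls (log2 fold change 0.19 with an SE of 0.16, edgeR adjusted p = 0.843). Ifi35 was at 83.4, 53.9 and 78.6 CPM after nicotine and at 94.5, 90.6 and 79.0 CPM in controls, so that its nicotine libraries overlapped the controls through replicate 1 (log2 fold change -0.29 with an SE of 0.19, edgeR adjusted p = 0.830). In all 4 the groups overlapped. The log2 fold change was -0.13 for Ifi35 without nicotine replicate 2 and 0.094 for Bst2 without control replicate 1.

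Of the remaining members, Rtp4 and Ifi44l each had their lowest library in nicotine replicate 2 and their highest in control replicate 2. Rtp4, a receptor transporter protein that is also induced by interferon, was at 26.1, 14.3 and 24.6 CPM after nicotine and at 29.1, 31.9 and 23.4 CPM in controls (log2 fold change -0.38 with an SE of 0.23, edgeR adjusted p = 0.827). Ifi44l was at 40.1, 25.1 and 28.6 CPM after nicotine and at 43.6, 44.8 and 28.9 CPM in controls (log2 fold change -0.33 with an SE of 0.22, edgeR adjusted p = 0.832). Without nicotine replicate 2 the log2 fold change was -0.16 for Rtp4 and -0.20 for Ifi44l. Xaf1, an interferon-induced partner of apoptosis inhibitors, averaged 26.7 ± 2.01 CPM in the nicotine group and 27.3 ± 2.15 CPM in the control group (SD, n = 3 each). These means differed by less than the spread between rats.

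Within at least 1 group the range over 3 rats was wider than the ratio of the group means for 31 of 32 members, a share near the 95.2% of all genes tested. The highest library was more than 2 times the lowest for 12 of 32 members, where 21.5% of the 13828 genes with at least the level of the least abundant tested member were so. Control replicate 2 held the highest value of 13 members (40.6%), while it held the highest value of 8.94% of all genes. Nicotine replicate 2 held the lowest value of 14 members (43.8%), against 26.8% of all genes. Both held for 9 members, which were Ifi27, Ifi44l, Ifit2, Ifit3, Mx1, Oas1a, Oas2, Rtp4 and Usp18. They make up 28.1% of the members, and 3.76% of all genes had this pair of extremes. Nicotine replicate 2 was not low for all members, since it was the highest library for 7 of them (21.9%, against 26.9% of all genes), among them Stat2, Eif2ak2, Ifih1 and Trim25. The median deviation of the members from their own means, on the log2 scale, was -0.24 in nicotine replicate 2 and 0.20 in control replicate 2, and between -0.09 and 0.06 in the other 4 libraries. These libraries were picked out after the values were seen, and no test of them is given.

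**Figure D3:**
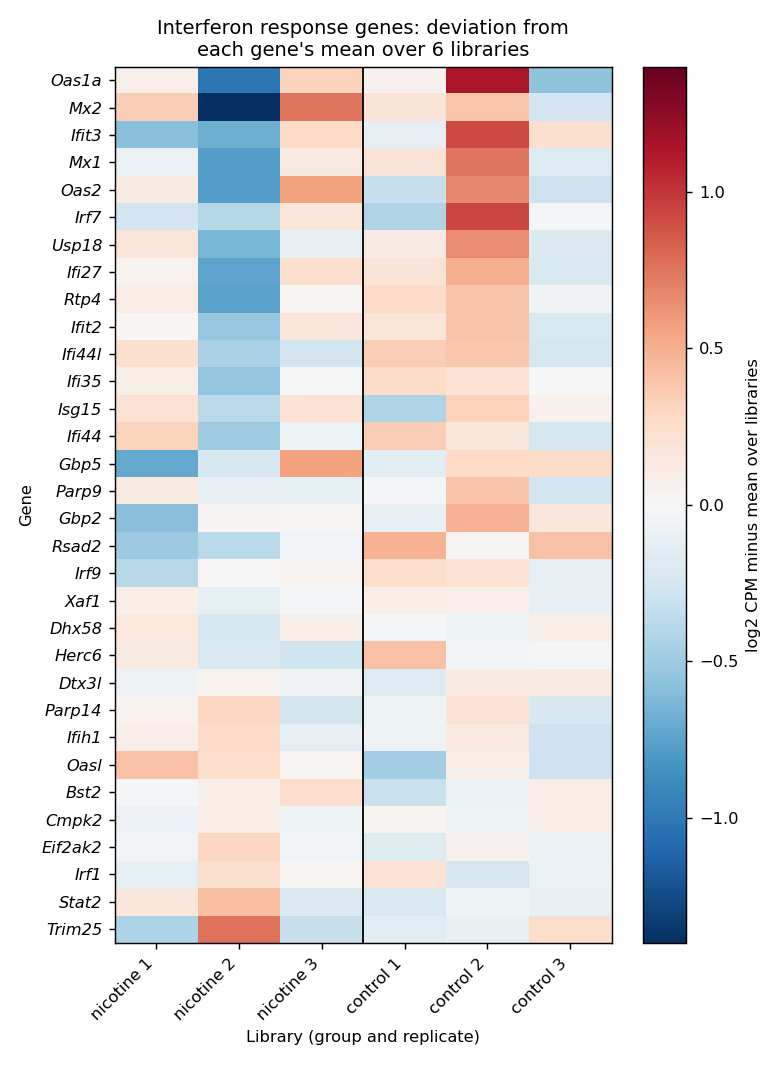
Heat map of the 32 members tested (y axis, ordered by control 2 minus nicotine 2) in the 6 libraries (x axis), coloured by log2 CPM minus the mean of the gene over libraries. The upper rows are red in control 2 and blue in nicotine 2, while Stat2 and Trim25 at the bottom are highest in nicotine 2.

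**Figure D4:**
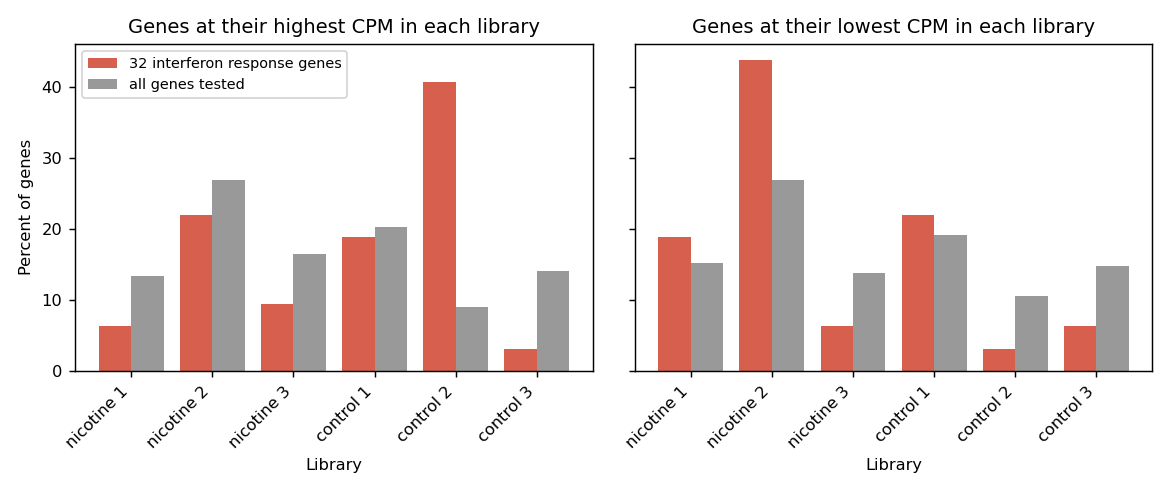
Percent of genes (y axis) whose highest CPM (left) or lowest CPM (right) is in each library (x axis), for the 32 members (red) and all genes tested (grey). Control 2 is the highest library for 40.6% of the members and 8.94% of all genes, and nicotine 2 is the lowest for 43.8% and 26.8%.

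Other genes of the pathway were read from lists of receptors, sensors, adaptors, regulators and further induced genes. Of 112 symbols outside the members, 104 were in the files and 93 passed the filter. Of these 0 were called by edgeR and 0 by DESeq2, and at an unadjusted p under 0.05 in edgeR 1 was higher and 6 were lower after nicotine, where 6.14% of all genes had such a p. Among 11 receptors, kinases and Stat genes 0 had such a p, as did 0 of 10 sensors, 1 of 15 adaptors and upstream kinases, 2 of 9 negative regulators and 3 further induced genes lower and 1 higher of 48. Ccl5, a chemokine of T and NK cells, was at 1.53, 1.86 and 1.67 CPM after nicotine and at 3.06, 2.89 and 3.14 CPM in controls, so the groups were well apart (log2 fold change -0.84 with an SE of 0.25, edgeR adjusted p = 0.760). Irf8, a transcription factor of monocytes and dendritic cells, was at 6.19, 9.97 and 14.4 CPM after nicotine and at 15.7, 15.9 and 18.6 CPM in controls (log2 fold change -0.71 with an SE of 0.27, edgeR adjusted p = 0.785). Trim30, an inhibitor of Toll-like receptor signalling, was at 0.912, 1.31 and 1.75 CPM after nicotine and at 2.105, 3.37 and 2.54 CPM in controls (log2 fold change -1.02 with an SE of 0.32, edgeR adjusted p = 0.760). The groups of these 3 genes did not overlap, nor did those of Gbp4, at 0.730 ± 0.202 CPM after nicotine against 1.22 ± 0.167 CPM (SD, n = 3 each). Such a separation in either direction was seen in 10 of the 93 pathway genes, and in 11.3% of all genes tested. The log2 fold change of Irf8 was -0.46 without nicotine replicate 1.

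Socs3, which blocks cytokine receptor kinases, was at 14.0, 10.8 and 10.4 CPM after nicotine and at 26.5, 17.0 and 12.1 CPM in controls. Its value rested on control replicate 1, since the log2 fold change was -0.66 (SE 0.27, edgeR adjusted p = 0.806) and -0.31 without that library. Oas3 had 4 to 10 counts in the nicotine libraries and 8 to 27 in the controls. Scaled to library size it was at 0.212, 0.0760 and 0.0661 CPM after nicotine and at 0.406, 0.511 and 0.211 CPM in controls. The groups of Oas3 overlapped (log2 fold change -1.83 with an SE of 0.62, edgeR adjusted p = 0.760). Ifitm1, a membrane protein that hinders viral fusion, was the 1 pathway gene that was higher at an unadjusted p under 0.05, at 18.2, 28.5 and 27.0 CPM after nicotine and 17.7, 18.3 and 17.9 CPM in controls (log2 fold change 0.45 with an SE of 0.20, edgeR adjusted p = 0.806). Irf3, the factor that starts interferon transcription, averaged 14.1 ± 2.49 CPM in the nicotine group and 13.2 ± 0.872 CPM in the control group (SD, n = 3 each), and its log2 fold change of 0.09 turned to -0.05 without nicotine replicate 1 (adjusted p = 0.937 from edgeR with all libraries). The 48 further induced genes were also read by library, with 11 of them (22.9%) highest in control replicate 2 and 16 (33.3%) lowest in nicotine replicate 2. Their median deviation on the log2 scale was 0.12 in control replicate 2 and -0.01 in nicotine replicate 2.

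Markers of other cells were read beside these values, and no marker gene passed the thresholds in edgeR with all 6 libraries. Without nicotine replicate 3 the erythroid genes Alas2 and Hemgn passed them. Without control replicate 2 the neutrophil genes Camp, Ngp, S100a8 and S100a9 did. Over all genes tested 6.14% had an unadjusted p under 0.05 in edgeR, and 49% had a log2 fold change below 0. The genes of a list may vary together, and no list was tested as a set. All 12 macrophage and microglia genes had a log2 fold change below 0, with 4 at an unadjusted p under 0.05 in edgeR. Their summed level was 314 to 540.0 CPM in the nicotine and 544 to 651 CPM in the control libraries. Nicotine replicate 2 held the lowest macrophage sum, while control replicate 2, at 557 CPM, lay inside the control range. The largest part of this sum came from Lyz2, whose groups overlapped and which was highest in nicotine replicate 1, at 321 CPM. Csf1r and C1qb were highest in nicotine replicate 3. The groups did not overlap in 2 of the 12 macrophage genes, where 11.3% of all genes tested had such a separation. The 11 lymphocyte genes tested were all below 0, 6 of them at an unadjusted p under 0.05, with sums over the list of 7.06 to 9.46 CPM against 12.5 to 21.2 CPM. The 6 neutrophil genes tested were all below 0 and at an unadjusted p under 0.05, but the control libraries ran from 6.75 to 138 CPM and control replicate 2 was the lowest of all 6 libraries. The 9 erythroid genes were all below 0, 7 of them at an unadjusted p under 0.05, with sums of 3119 to 9840.02 CPM after nicotine and 8099.7 to 16357 CPM in controls. The 10 endothelial genes were all above 0, 6 of them at an unadjusted p under 0.05, with sums of 219.5 to 354 CPM against 173 to 232 CPM.

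Plasmacytoid dendritic cells, the main makers of type I interferon, had 5 of 7 tested markers below 0 and sums of 63.7 to 84.8 CPM after nicotine and 67.2 to 82.7 CPM in controls. Of the 7, 2 had an unadjusted p under 0.05 and were lower, among them Spib, a transcription factor of these and of B cells, at 0.352 ± 0.0673 CPM against 1.74 ± 1.08 CPM (SD, n = 3 each). Most of the sum came from Tcf4, whose groups overlapped at means of 47.1 and 43.6 CPM. Siglech, a defining marker of these cells, had 0 to 12 counts per library. The 6 folliculostellate and stem cell genes were all above 0, with sums of 224 to 288 CPM against 208 to 249 CPM, and of 11 hormone cell genes 7 were above and 4 below, with 2 of the former at an unadjusted p under 0.05. No marker list had a gene at 0 in every library. The part of these cells in the levels of the interferon response genes was not tested.

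**Figure D5:**
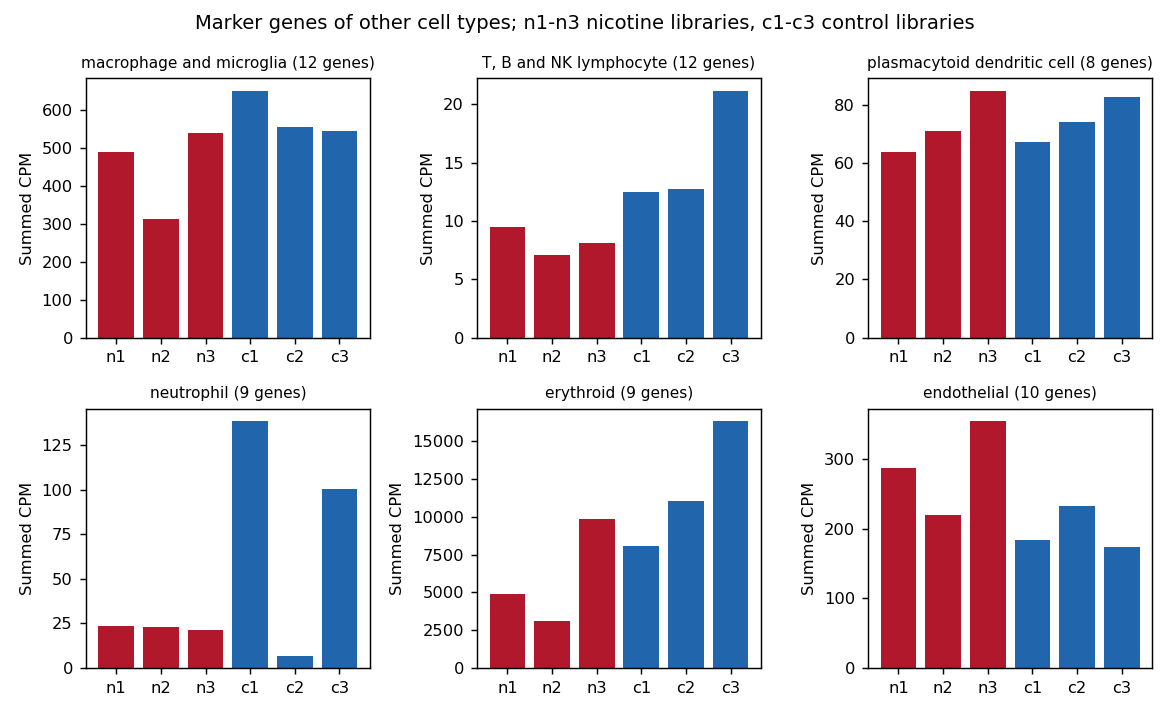
Summed CPM (y axis, starting at 0) of 6 marker lists in the nicotine libraries (n1 to n3, red) and control libraries (c1 to c3, blue). The macrophage and lymphocyte sums of the 3 nicotine libraries lie below those of the 3 control libraries. For macrophages the margin is narrow, with 540.0 CPM in n3 and 544 CPM in c3. The neutrophil sum of c2 is the lowest of the 6.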

How the data were processed

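RNA from 6 pituitary glands was sequenced in paired-end mode from stranded libraries. Per the labels and the methods, the authors demultiplexed with bcl2fastq 2.20.0.422, mapped to rn7 with HISAT2 2.1.0 and assigned reads to ncbiRefSeq genes with featureCounts. They tested the groups with DESeq2 2.11.40.7. The deposited files hold whole-number counts per gene symbol without normalization. The strand setting, the handling of reads with several positions, and whether reads or pairs were counted are not given in the sources used here.

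Calculations were done in R 4.3.3. Genes were kept by filterByExpr, scaled by TMM and tested in edgeR 4.0.16 (glmQLFit and glmQLFTest, no covariate), with Benjamini-Hochberg adjustment over the 17292 genes tested. DESeq2 1.42.0 was an alternative. Intervals are 95% and use the degrees of freedom of the edgeR fit. Log2 CPM used a prior count of 2. SD is over 3 rats, and edgeR p-values set the difference between groups against the spread between these rats as the fit estimates it. The code was tested on simulated data. Counts were drawn at the mean and dispersion fitted to each gene, and the changed genes were taken from those above a low level. Of 99 genes given a log2 fold change of 1 in either direction, 54.5% passed the thresholds. Of 101 genes given a log2 fold change of 2, 96% passed. In that simulation 22 unchanged genes passed as well. These shares belong to the simulated setting and do not give the share of changed members that would be found.

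The members and lists were chosen with earlier results of these data known. Values in every library are given for the 10 members with the smallest unadjusted p, the 4 with the highest CPM and the member below the filter. Irf7, Oas1a, Mx2, Isg15 and Cmpk2 were chosen for this after their values were seen. Of each pathway list up to 4 genes with an unadjusted p under 0.05 are named, besides Ifnar1, Ifnar2 and Irf3 and 1 further gene that is not reported here, and the ligands Ifnb1, Ifna1 and Ifng and the markers Siglech and Tcf4 were chosen after their counts were seen. Marker lists covered macrophages, lymphocytes, plasmacytoid dendritic cells, neutrophils, erythroid, endothelial, hormone and folliculostellate cells.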

Additional observations from a re-analysis of the deposited data

How the results depend on the processing

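The alternatives were DESeq2, RLE scaling, no TMM factors, no filter, a filter of 10 counts per library, counts thinned to the depth of the smallest library, omission of genes over 1% of the counts, the replicate block, an adjusted p under 0.05, any fold change and 1 library left out at a time. In all of them 0 members were called, and 0 other pathway genes under those that keep the thresholds. edgeR's older fit, chosen after seeing the data, gave the same counts. Since the smallest adjusted p of a member in the main comparison was 0.760, the changed thresholds could give nothing else. Over all genes, where 0 were called, DESeq2 called 61, no filter 2, the replicate block 2, and no TMM factors and thinning 1 each, while leaving out 1 library gave 0 to 9 (9 without nicotine replicate 3, 4 without control replicate 2 and 1 without nicotine replicate 2). The cause was not tested. No pairing of the rats by replicate number was seen, as the deviations of same-numbered libraries correlated at 0.026, -0.198 and -0.078. With 3 rats per group these values cannot exclude a pairing. With the block the median log2 fold change of the members was -0.17.

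With 1 library left out, the log2 fold change ranged from -0.68 to 0.057 for Irf7, from -0.84 to 0.11 for Oas1a, from -0.38 to 0.014 for Ifi44, from -0.14 to 0.0070 for Ifnar1 and from -0.052 to 0.19 for Irf3. No other gene given with a fold change changed direction in these fits, and none of them did so under the other alternatives. The median over the members ranged from -0.26 to -0.03. Over the scalings 13 to 14 members were highest in control replicate 2 and 13 to 15 were lowest in nicotine replicate 2. The share of member promoters fell to 32% with the longer element, which by its construction matches fewer windows. The totals differ between groups, and 3 rats per group limit the precision of each value.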
